A study of Mus musculus with 4 samples.

Results

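Genes that drive, copy or restrain the cell division cycle were read in whole normal skeletal muscle, a tissue made mostly of fibres that no longer divide. They were 40 genes listed by name for their part in the cycle, with no measured value in the rule, and all 40 had a probe set that the platform annotation gives to 1 gene, out of 12393 genes on the array. The samples were 4 arrays of bulk normal muscle from wild type mice of a mixed 129S4/SvJae and C57BL/6 background, all in 1 group, titled nm7, nm8, skm4 and skm5. The labels give no age, sex, muscle or treatment, do not say what the prefixes nm and skm mean, and do not say whether each sample came from its own animal. The series also describes rhabdomyosarcomas, from Pax7-CreER mice or from sorted progenitors, and sarcomas started by Adeno-Cre in the muscle, which were not analysed here. Values are log2 expression values from robust multi-array averaging (RMA), so a difference of 1 is 2-fold, and values of each gene are given in the order nm7, nm8, skm4, skm5. The annotation gave 20 of the genes several probe sets, and the one with the highest mean stood for the gene.

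Entry into the cycle is set by D-type cyclins with Cdk4 and Cdk6 and by E-type cyclins with Cdk2, which phosphorylate the retinoblastoma protein and so free E2F factors to switch on the genes of DNA replication. The Mcm helicase then unwinds DNA, ribonucleotide reductase and thymidylate synthase supply nucleotides, and cyclin A, cyclin B and Cdk1 with the Aurora and Polo kinases carry the cell through mitosis. In resting adult muscle the nuclei of the fibres are out of the cycle, and division is left to satellite cells and to blood-derived, vascular and connective tissue cells between the fibres. Bulk RNA sums all of these, so fewer cycling cells and less RNA per cell cannot be told apart.

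Promoters of mitotic and of replication genes differ in the motifs by which they are switched off in resting cells, and those of the genes that differed by the largest amount between the prefixes in each of these roles are shown to let the letters be read beside the values. The cell cycle homology region was searched as TTTGAA and TTCGAA, E2F sites as TTTGGCGC, TTTCGCGC, TTTCCCGC and TTTGGCGG, and NF-Y sites as CCAAT, all on both strands, in RefSeq windows (GRCm38.p6) from 250 bases before to 50 bases after the gene start. TTTGGCGC and TTTCGCGC can overlap when they lie on opposite strands. Capitals mark every match. Mki67, the proliferation antigen Ki-67, at chr7:135716330-135716629 on the minus strand, has matches for the homology region beginning at positions -116 and -98 relative to the start, downstream of CCAAT matches. Top2a, topoisomerase II alpha, at chr11:99024140-99024439 on the minus strand, has several for the homology region and for CCAAT. Mcm6 at chr1:128359656-128359955 on the minus strand and Mcm5 at chr8:75109259-75109558 on the plus strand, both subunits of the replication helicase, have E2F matches and none for the homology region.
Mki67: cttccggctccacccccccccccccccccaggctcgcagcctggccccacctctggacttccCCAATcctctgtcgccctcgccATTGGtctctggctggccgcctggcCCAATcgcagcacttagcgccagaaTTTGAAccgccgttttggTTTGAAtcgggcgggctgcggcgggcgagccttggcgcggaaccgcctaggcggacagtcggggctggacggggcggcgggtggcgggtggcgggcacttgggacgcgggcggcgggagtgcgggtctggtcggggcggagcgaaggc
Top2a: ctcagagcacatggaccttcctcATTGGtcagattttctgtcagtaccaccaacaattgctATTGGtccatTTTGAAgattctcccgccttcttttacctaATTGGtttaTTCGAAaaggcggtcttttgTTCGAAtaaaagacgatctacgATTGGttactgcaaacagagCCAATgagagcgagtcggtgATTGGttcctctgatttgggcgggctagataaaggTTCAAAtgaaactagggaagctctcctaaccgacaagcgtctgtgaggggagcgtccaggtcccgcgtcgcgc
Mcm6: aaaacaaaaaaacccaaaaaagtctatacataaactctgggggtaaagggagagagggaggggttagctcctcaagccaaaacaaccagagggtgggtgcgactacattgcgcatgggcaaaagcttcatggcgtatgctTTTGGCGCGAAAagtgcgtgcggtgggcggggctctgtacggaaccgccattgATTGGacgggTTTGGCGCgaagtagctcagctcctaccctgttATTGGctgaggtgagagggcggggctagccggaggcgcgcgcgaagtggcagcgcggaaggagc
Mcm5: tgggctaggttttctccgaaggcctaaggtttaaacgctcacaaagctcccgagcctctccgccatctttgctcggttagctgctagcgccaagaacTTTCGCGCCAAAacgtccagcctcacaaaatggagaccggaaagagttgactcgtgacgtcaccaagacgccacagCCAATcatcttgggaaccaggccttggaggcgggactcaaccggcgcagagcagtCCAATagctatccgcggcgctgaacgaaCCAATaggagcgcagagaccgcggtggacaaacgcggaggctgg

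Windows were found for 32 of the 40 genes, 35 windows in all. A match to the homology region was held by 11 of 14 windows of mitotic genes and by 2 of 11 windows of replication genes, against 19.2% of all 32851 windows. An E2F match was held by 1 of 14 mitotic and 5 of 11 replication windows, against 2.37% of all windows, and a CCAAT match by 11 of 14 and 9 of 11, against 37.4%. Of the genes of G1 cyclins and kinases, 6 windows held no match to the homology region. Nusap1, Mad2l1, Birc5 and Tyms had none of these letters in the window. The matches are a description of the sequence, with no test, and binding was not measured.

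**Figure D1:**
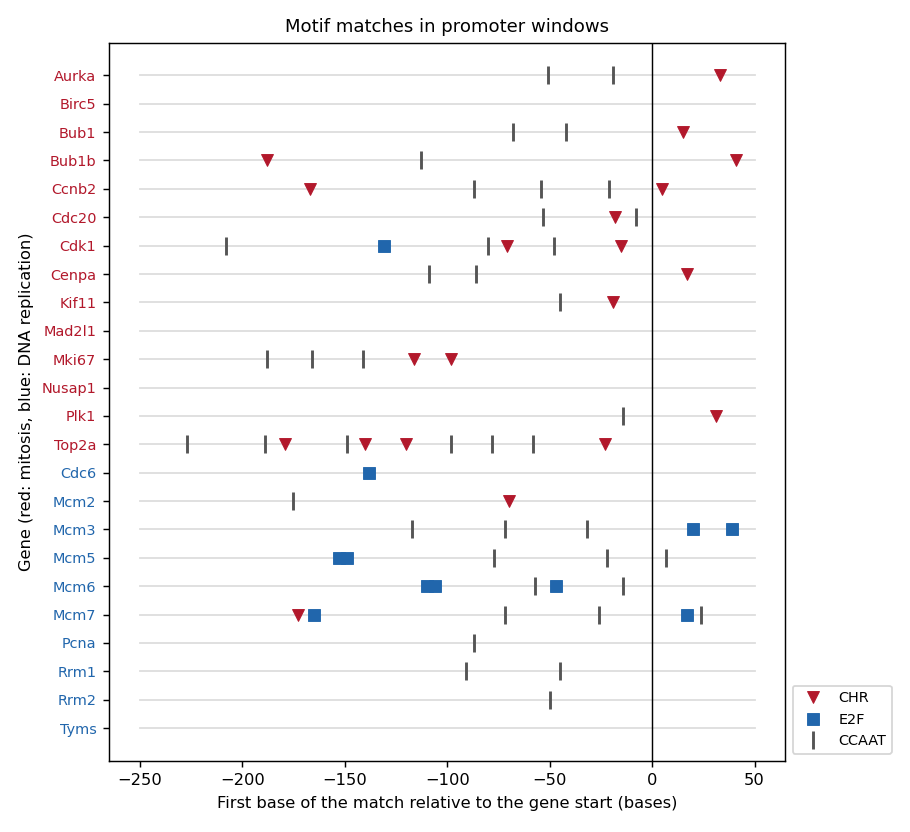
Motif matches in promoter windows of the mitotic (red names) and replication (blue names) genes that have a RefSeq window, with the position of the first matching base relative to the gene start in bases on the horizontal axis. Triangles for the cell cycle homology region lie mostly in mitotic genes and squares for E2F mostly in replication genes. For Mcm7 1 of its 2 windows is drawn.

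The defining markers of the labelled tissue were present: the 6 fibre genes (Ckm, Acta1, Myh4, Mb, Tnnt3 and Ttn) averaged 14.39 to 14.53 in every sample. Arrays had medians of 7.26 to 7.3 over all probe sets. Of the 4 arrays, skm4 lay furthest from the gene medians, at a median absolute deviation of 0.132 against 0.111 to 0.116. TrpnX, a bacterial sequence with control probe sets on the array, read 3.40 to 4.05, and 31 olfactory receptor genes, which muscle is not known to use, had a 95th percentile of 5.92 to 6.13 in the single arrays. By this yardstick 11 of the 40 cell cycle genes were dim on average, 7 of 16 mitotic genes, 3 of 11 replication genes and 1 of 8 G1 cyclins and kinases, against 24.3% of all genes. Read array by array, 10 genes lay under the percentile in all samples of both prefixes (Ccnb2, Aurkb, Bub1, Birc5, Tyms, Mcm5, Cdk6, Cdc6, Kif11 and Nusap1). In 4 others (Mki67, Top2a, Ccna2 and Cdk1) both skm samples did. RMA compresses differences at that level, so no fold is given for the first 10. For Mki67, Top2a and Ccna2 a fold is a lower bound, the nm mean against the percentile of the skm arrays. Cdk1 has no such bound, because its nm mean of 5.98 lay under that percentile, at 6.12.

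Taken by their sign, 29 of the 40 genes were lower in the skm samples and 11 higher, but 0 passed limma's test over all genes (2 arrays against 2, adjusted p under 0.05), where 4 genes or 0.0323% of all genes passed. The lowest adjusted p among the 40 was 0.0506, shared by Ccnd1, Top2a and Nusap1. With no adjustment, 11 genes had a p under 0.05 and were lower in skm (27.5%), against 13.0% of all genes, and 4 higher (10%), against 10.6%. Both skm samples lay under both nm samples in 16 genes (40%), where 28.6% of all genes did so, and over them in 4 (10%), where 25.8% did. The median difference was -0.15 over the 40 genes and 0.00 over all genes, and it ran from -0.10 without nm8 to -0.25 without skm5. With quantile normalization of the 4 arrays the test called 3 of the 40 genes (Top2a, Ccnd1 and Nusap1), where 1.5% of all genes passed. It called 6 with an intensity trend in the fit, where 8.96% passed, so the count of 0 depends on these settings.

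Samples differed by more than 2-fold in 8 of the 40 genes (20%), against 5.98% of all genes. The SD over the 4 samples had a median of 0.28, against 0.19 over all genes, and ran from 0.03 for Cdk4 to 1.13 for Mki67. In 20 genes (50%) the lowest value lay in skm4, against 26.6% of all genes, and in 21 (52.5%) the highest lay in nm8, against 27.2%. Centred on each gene's mean, the 40 genes had medians of 0.03, 0.17, -0.14 and -0.05. Without skm4, 5 genes differed by more than 2-fold, against 3.46% of all genes.

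**Figure D2:**
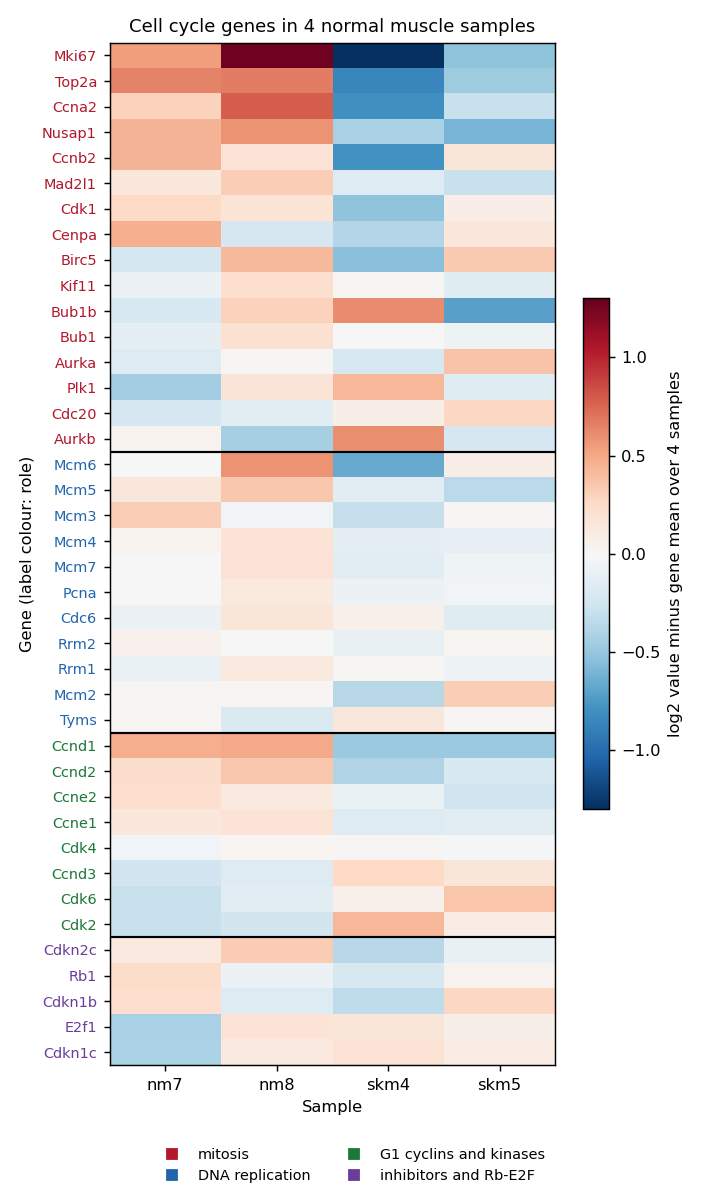
Log2 values of the 40 cell cycle genes in the 4 samples, each minus the gene's mean, with genes grouped by role (label colour) and sorted by the skm minus nm difference within a role. Red is above and blue below the mean: Mki67, with an SD of 1.13, shows the deepest colours, and nm8 holds the highest value in 21 genes and skm4 the lowest in 20.

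Among the 16 genes of mitosis, the 4 with the largest differences (Mki67, Top2a, Ccna2 and Nusap1) were lower in both skm samples, and none passed the test. Mki67 stood at 6.89 and 7.61 in the nm samples and at 5.05 and 5.82 in the skm samples. It was thus highest in nm8 and lowest in skm4, with no overlap and a difference of -1.81 ± 0.34 (SE, n = 2 per prefix, at least 2.2-fold, adjusted p = 0.0688). Top2a, which untangles replicated chromosomes, stood at 6.77, 6.79, 5.28 and 5.67. Its nm values were nearly the same and its skm values both lower, with a difference of -1.3 ± 0.16 (at least 1.59-fold, adjusted p = 0.0506). Ccna2, the cyclin A of S phase and early mitosis, stood at 6.24, 6.73, 5.15 and 5.66. Its order over the samples was that of Mki67, and its difference was -1.08 ± 0.24 (at least 1.29-fold, adjusted p = 0.0845). Nusap1, which bundles the microtubules of the spindle, stood at 5.78, 5.92, 4.92 and 4.74. Here skm5 and not skm4 was lowest, the prefixes again did not overlap, and the difference was -1.02 ± 0.13 (adjusted p = 0.0506, with all 4 values at background).

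The mitotic kinase Cdk1 and its partner cyclin Ccnb2 were set apart by 1 sample. Ccnb2 stood at 5.57, 5.32, 4.35 and 5.29, so that skm5 was next to nm8 and skm4 lay well under the others, for a difference of -0.63 ± 0.32. It was -0.15 without skm4. Cdk1 stood at 6.02, 5.94, 5.23 and 5.84, in the same pattern, for -0.44 ± 0.22, and at -0.14 without skm4. Mad2l1, a checkpoint protein that holds back the end of mitosis, stood at 7.88, 8.06, 7.58 and 7.45, lower in both skm samples, with a difference of -0.45 ± 0.13 (adjusted p = 0.13). Without nm8, nm7 or skm5 the difference of Ccnb2 lay within -1.10 to -0.50, so skm4 alone carried most of its size.

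Of the other 9 mitotic genes 5 were lower by sign and 4 higher (Cdc20, Aurkb, Plk1 and Aurka). Cdc20, the activator of the anaphase-promoting complex that Mad2l1 restrains, stood at 7.71, 7.79, 8.01 and 8.19, higher in both skm samples by 0.35 ± 0.13 (adjusted p = 0.187), and it was the only mitotic gene of the 16 that was higher without overlap; the mean of its probe sets gave -0.11. Bub1b, another checkpoint gene, stood at 5.74, 6.24, 6.55 and 5.23, with the skm samples at the opposite ends and the nm samples between them. Aurkb, the kinase of the chromosomal passenger complex, stood at 4.76, 4.28, 5.32 and 4.49, and its partner Birc5, the protein survivin, at 5.29, 5.94, 4.97 and 5.86. Aurkb was thus highest in skm4, where Birc5 was lowest, but both genes lay at background in all 4 samples. The second probe set of Aurkb was not highest there, at 4.24, 4.18, 4.22 and 3.70. Plk1, the Polo kinase, stood at 6.29, 6.91, 7.17 and 6.58, and Cenpa, the histone of centromeres, at 6.59, 5.91, 5.75 and 6.27. Aurka, Bub1 and Kif11, a spindle motor, had SDs of 0.27, 0.14 and 0.16 and overlapped between the prefixes, while the dimmer probe sets of Bub1 (-0.70) and Kif11 (-0.47 and -0.73) were lower without overlap. In all, 7 of the 16 (43.8%) were lower and 1 (6.25%) higher without overlap, against 28.6% and 25.8% of all genes. The median difference was -0.22.

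**Figure D3:**
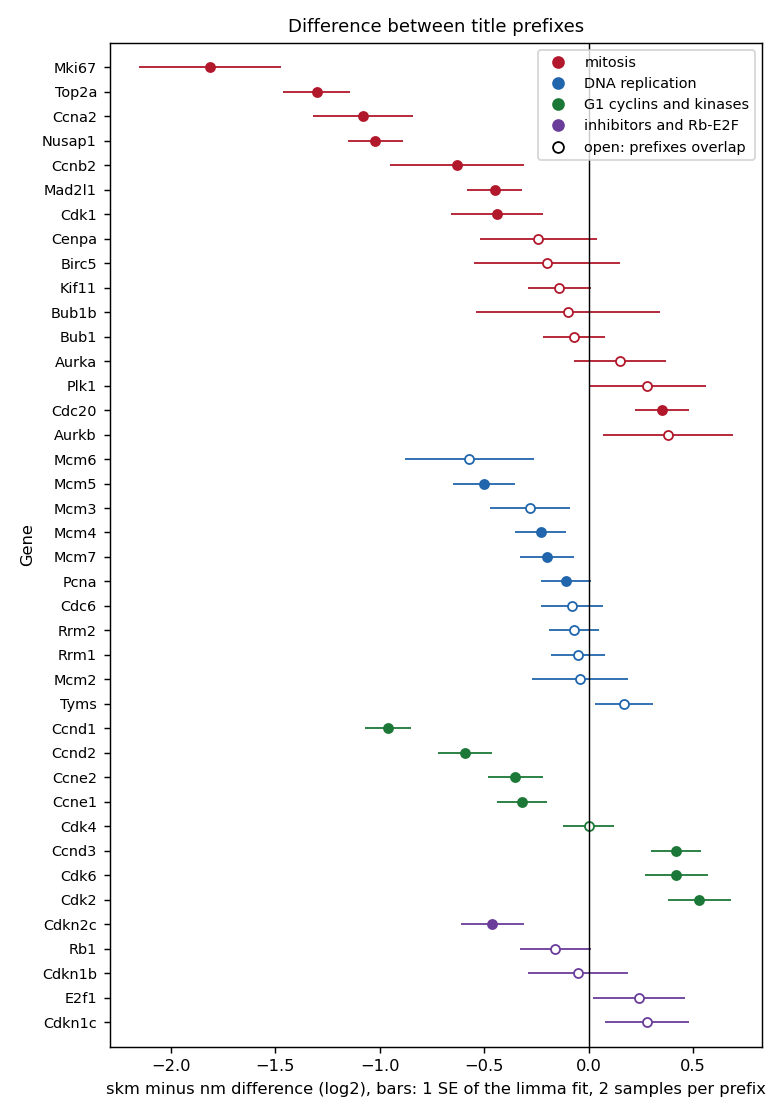
Difference between the title prefixes, skm minus nm, for the 40 genes on the log2 scale, with bars of 1 SE of the limma fit (2 samples per prefix). Filled points mark genes whose prefixes did not overlap: 16 lie left of 0 and 4 right of it, and Mki67 lies furthest left at -1.81.

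Replication genes varied less. Of 11 genes, 10 were lower by sign in skm, with a median difference of -0.11 and a median SD of 0.14. Without overlap 4 (36.4%) were lower and 0 higher, against 28.6% and 25.8% of all genes. The 6 subunits of the Mcm helicase were all lower by sign, with differences of -0.57 to -0.04, though Mcm2 turned to 0.01 with quantile normalization. Mcm6 stood at 6.49, 7.08, 5.84 and 6.58, with skm5 above nm7, and differed by -0.57 ± 0.31. Mcm5 stood at 5.45, 5.66, 5.16 and 4.95, with no overlap, and differed by -0.50 ± 0.15 (adjusted p = 0.127). Mcm3 stood at 7.72, 7.36, 7.10 and 7.42 and Mcm2 at 7.85, 7.86, 7.48 and 8.16, both lowest in skm4 and both overlapping. Mcm4 stood at 7.94, 8.08, 7.78 and 7.79 and Mcm7 at 8.83, 9.01, 8.68 and 8.76, without overlap but with differences of -0.23 ± 0.12 and -0.20 ± 0.13, under 2 SE.

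The remaining replication genes had SDs of 0.06 to 0.14. Pcna, the clamp that holds DNA polymerase on its template, stood at 10.50, 10.63, 10.43 and 10.47, an SD of 0.09. Rrm1 and Rrm2, the subunits of ribonucleotide reductase, had SDs of 0.10 and 0.06. These rested on the probe set, since the SD was 0.25 for Rrm1 with the mean of its probe sets and 0.32 for Rrm2 without cross-hybridizing ones. Cdc6, which loads the helicase at origins, stood at 4.89, 5.12, 5.03 and 4.81, and Tyms, thymidylate synthase, at 4.14, 3.92, 4.26 and 4.13, close to the TrpnX controls. At such a level a difference in Tyms was not measurable here. Tyms was the 1 replication gene higher by sign.

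The cyclins of G1 went in opposite directions. Ccnd1, cyclin D1, stood at 9.02, 9.04, 8.07 and 8.06. Samples of 1 prefix read nearly the same, and the prefixes differed by -0.96 ± 0.11 (1.95-fold, adjusted p = 0.0506). Ccnd2, cyclin D2, stood at 10.13, 10.25, 9.51 and 9.70, lower in both skm samples, with a difference of -0.59 ± 0.13 (1.5-fold, adjusted p = 0.0851). Ccnd3, cyclin D3, which muscle cells take up as they leave the cycle and differentiate, stood at 9.12, 9.2, 9.63 and 9.53, higher in skm by 0.42 ± 0.12 (1.34-fold, adjusted p = 0.125). None of the 3 overlapped between the prefixes, so leaving out 1 sample could not turn their sign. Their differences were then -0.97 to -0.95 for Ccnd1, -0.68 to -0.49 for Ccnd2 and 0.37 to 0.47 for Ccnd3. Whether Ccnd3 differed from the other D-type cyclins was not tested. When only the 6197 brighter genes (a mean no lower than the median gene's) were tested, all 3 passed, as did 1026 genes (16.6%).

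Every probe set of Ccnd1 and Ccnd2 read lower on average in skm. For Ccnd1 the differences of its 3 probe sets were -0.96, -0.59 and -0.74, each without overlap. For Ccnd2 the 7 probe sets differed by -1.20 to -0.17, and 5 of them had no overlap. With each probe set tested on its own over 20380 probe sets, 1 of Ccnd1 and 2 of Ccnd2 passed, at adjusted p of 0.0439, 0.0416 and 0.0454, where 1.6% of all probe sets passed. Ccnd3 had 1 probe set.

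**Figure D4:**
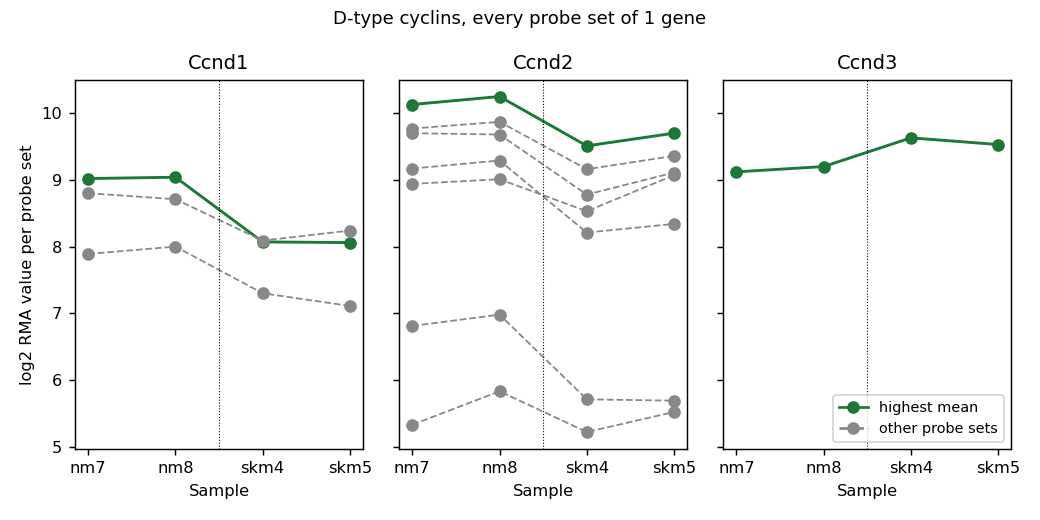
Log2 values of every probe set of Ccnd1, Ccnd2 and Ccnd3 by sample, with the probe set that stands for the gene in green and the others in grey. Lines join the values of 1 probe set and imply no order of samples. The nm samples lie to the left of the dotted line, where Ccnd1 reads 9.02 and 9.04 against 8.07 and 8.06 in skm, and Ccnd3 reads lower than in skm.

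E-type cyclins followed cyclin D1 and cyclin D2 in direction at a smaller size. Ccne1 stood at 7.11, 7.15, 6.80 and 6.82, a difference of -0.32 ± 0.12, and Ccne2 at 7.44, 7.35, 7.13 and 6.96, a difference of -0.35 ± 0.13, with adjusted p of 0.183 and 0.188. Neither overlapped between the prefixes. Of the kinases, Cdk4 had the smallest SD of the 40 genes, 0.03, with values of 9.03 to 9.09, though it was 0.11 without cross-hybridizing probe sets. Cdk2, the partner of cyclins E and A, stood at 7.11, 7.16, 7.83 and 7.50, higher in skm by 0.53 ± 0.15 (adjusted p = 0.126). Cdk6 stood at 4.69, 4.85, 5.05 and 5.34, a difference of 0.42 ± 0.15 at a level as dim as the olfactory receptor genes. So 4 of the 8 G1 genes (50%) were lower and 3 (37.5%) higher without overlap, against 28.6% and 25.8% of all genes. Cdk4 was neither.

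The inhibitors, Rb1 and its target E2f1 had SDs of 0.19 to 0.30, and 0 of 5 passed the test. Cdkn2c, the inhibitor p18 of Cdk4 and Cdk6, stood at 10.20, 10.41, 9.71 and 9.98, lower in both skm samples, with a difference of -0.46 ± 0.15 (adjusted p = 0.161). Cdkn1b, the inhibitor p27, stood at 9.88, 9.49, 9.33 and 9.93, with the skm samples at both ends. Cdkn1c, the inhibitor p57, stood at 11.17 in nm7 and at 11.68 to 11.76 in the other samples. Rb1, the retinoblastoma protein, stood at 10.17, 9.85, 9.72 and 9.97, and E2f1, the factor it holds, at 6.35, 6.95, 6.93 and 6.85. Apart from Cdkn2c, these genes overlapped between the prefixes.

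Probe sets of 1 gene did not always go the same way. Of the 20 genes with several, 10 had probe sets of 1 sign, 9 lower and 1 higher, and 10 had both signs, none of them by over 0.5 each way. Top2a had a second, dimmer probe set at 4.35, 4.79, 5.07 and 4.42, with a difference of 0.18 ± 0.26 against -1.3 for the one that stands for the gene. The second of Nusap1 differed by 0.05 ± 0.15 and that of Ccna2 by -0.04 ± 0.18. For Rrm1 the second probe set stood at 6.28, 6.03, 7.01 and 7.10, a difference of 0.91 ± 0.15 where the chosen one gave -0.05. For Mcm6 the second stood at 5.86, 5.34, 4.21 and 4.26, a difference of -1.36 ± 0.20 where the chosen one gave -0.57. For Cdkn1b the second stood at 4.70, 4.96, 5.63 and 5.57, a difference of 0.77 ± 0.15 where the chosen one gave -0.05. Which probe set stood for a gene therefore set the size of its difference, and in 10 genes its sign.

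Cell cycle genes outside the 40 gave a like count. Of 112 listed, 95 were measured and 0 passed the test, 45 (47.4%) were lower and 12 (12.6%) higher without overlap, beside the 28.6% and 25.8% of all genes given above, and the median difference was -0.14. Among 37 further mitotic genes the median was -0.31, with 17 lower and 2 higher without overlap. Incenp, the scaffold of the chromosomal passenger complex, stood at 7.58, 7.72, 6.59 and 6.61, a difference of -1.05 ± 0.12 (2.07-fold, adjusted p = 0.0506). Smc2, a subunit of condensin, differed by -0.82 ± 0.17, Cks2, a binding partner of Cdk1, by -0.81 ± 0.24 and Anln, the anillin of the cleavage furrow, by -0.78 ± 0.19. Among 34 further replication genes the median was -0.11, with 16 lower and 5 higher without overlap. Dbf4, which activates the kinase Cdc7 at origins and was dim here, differed by -0.83 ± 0.30, Dut, which keeps uracil out of DNA, by -0.72 ± 0.14, Pola1, the catalytic subunit of DNA polymerase alpha, by -0.65 ± 0.14 and Dnmt1, the methyltransferase that acts behind the fork, by -0.58 ± 0.13.

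Markers of T cells, B cells and adipocytes were mostly lower in the skm samples, as were the mitotic genes with the largest differences, and no marker passed the test. All 6 measured T cell markers were lower in both skm samples, as 28.6% of all genes were. Their summed linear values were 1579 and 1900 in nm and 920 and 1040 in skm. The CD3 gamma gene Cd3g stood at 7.45, 8.09, 4.90 and 5.66, the largest difference of the 6 at -2.49 ± 0.32. Cd3e and Cd8a differed by -0.38 ± 0.13 and -0.37 ± 0.13, and Cd4 by only -0.11 ± 0.12. Of 5 B cell markers 4 were lower and 1, Pax5, higher without overlap, with sums of 746 and 721 in nm and 208 and 366 in skm. The 16 mitotic genes summed to 1485 and 1720 in nm and to 1284 and 1399 in skm. Adipocyte markers were lower without overlap in 3 of 4, beside 28.6% of all genes, with sums of 21225 and 20578 against 15599 and 19401. Macrophage markers were lower without overlap in 2 of 8 and higher in 1, with sums of 5318 and 5264 against 3423 and 4731. The dim markers in these 4 lists were Cr2 and Pax5 of the B cell list and Itgam of the macrophage list. The part of these cells in the values of the cell cycle genes was not tested.

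Markers of the resident muscle progenitors went both ways. Of 8 satellite cell and myoblast genes 2 were lower and 3 higher without overlap, where 28.6% and 25.8% of all genes were. Their median difference was 0.01, with sums of 3319 and 3415 in nm and 3629 and 3970 in skm. Pax7, the factor of satellite cells, stood at 6.65, 6.58, 6.36 and 6.24, a difference of -0.31 ± 0.12 (adjusted p = 0.20). Myod1, the myogenic factor of activated progenitors, stood at 8.56, 8.19, 9.62 and 9.62, a difference of 1.24 ± 0.16, and Sdc4, a syndecan of satellite cells, differed by -0.82 ± 0.11, both with an adjusted p of 0.0506. Endothelial markers also went both ways, 2 of 6 lower and 2 higher without overlap, with Pecam1 at 7.77, 7.83, 8.92 and 9.29 (1.31 ± 0.16, adjusted p = 0.0506) and Kdr at -0.58 ± 0.12. Of 5 fibroblast markers 2 were lower without overlap, with a median difference of -0.07. Keratinocyte markers, at a summed 2153 in skm5 and 680 to 794 in the others, and Schwann cell markers, at 5149 in skm5 and 2115 to 3054 in the others, were highest in skm5. Erythroid precursor markers were higher without overlap in 4 of 5, among them Alas2, which begins haem synthesis in red cells, at 8.28, 8.10, 8.77 and 9.79. Hba-a1 and Slc4a1, also among these 4, were dim. The other dim markers in this paragraph's lists were Calcr, Krt1, Dsp and Trp63. The part of these cells was not tested either.

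**Figure D5:**
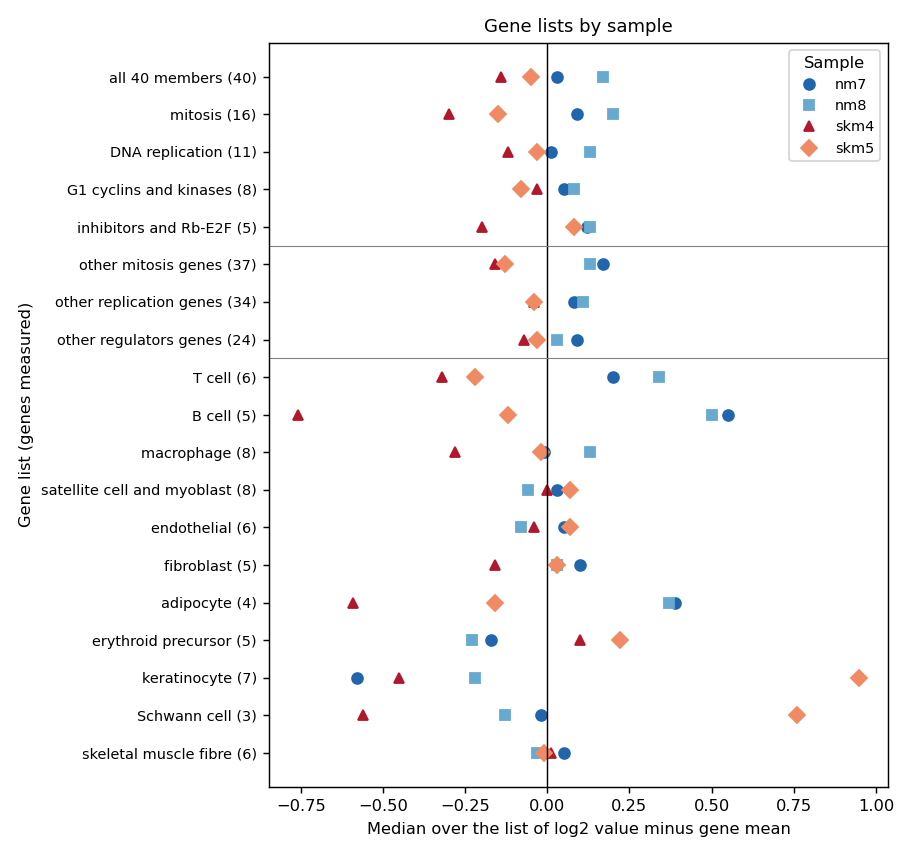
Median over each gene list of the log2 value minus the gene's mean, by sample, for the cell cycle genes and their roles (top), further cell cycle genes (middle) and markers of cell types (bottom), with the number of genes measured in brackets. The mitotic genes have medians of 0.09, 0.20, -0.30 and -0.15 over nm7, nm8, skm4 and skm5. The replication genes and T cell markers have the same order of samples, while the B cell markers and the further mitotic genes do not. Macrophage markers have it only by a small margin, with nm7 at -0.01 and skm5 at -0.02.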

How the data were processed

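Total RNA of 4 normal muscle samples was hybridised to 1-colour Affymetrix arrays, 1 per sample. The authors deposited 1 log2 value per probe set, computed by RMA with Affymetrix Expression Console 1.1 according to the submitters' processing notes. Which arrays were normalized together is not stated. Values ran from 2.80 to 14.76, which fits a log2 scale. RNA came by a fibrous tissue kit or TRIzol, per the labels' protocols, with no route given per sample.

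Of 22690 probe sets, 64 were controls and left out, 20380 had 1 gene in the platform annotation, 691 several and 1555 none. Symbols were checked by Entrez identifier against GRCm38.p6, and 29 probe sets without a match kept theirs. The probe set with the highest mean stood for a gene, which left 12393 genes with no filter and no further normalization. The members and lists were chosen with earlier results of these data known. The rule named all 40 genes, with values in every sample for the largest differences and SDs in each role and for the cyclin D, cyclin E and Mcm families.

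The skm minus nm difference was fitted to all genes with limma 3.58.1 in R 4.3.3 (lmFit, eBayes, 2-sided, Benjamini-Hochberg over all genes, threshold 0.05). It had 2 residual and 3.51 prior degrees of freedom. On simulated arrays the test called 36% of genes changed by 1 on the log2 scale, 69% of those changed by 2 and 0 unchanged genes. A count of 0 past the test therefore does not show that no gene differed. The spread behind each p-value is that between the 4 muscle samples and may be technical, and the number of arrays limits the precision. A gene was called dim where its mean lay under 5.9, the 95th percentile of 31 olfactory receptor genes. The 11 alternatives changed normalization, filter, probe set rule or eBayes trend, or left out 1 sample.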

Additional observations from a re-analysis of the deposited data

Results flagged for a closer look

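In a group of 4 samples, a sample was singled out where its gap to the nearest other, divided by the range, passed Dixon's 95% critical value, which chance does in about 1 group in 20. Of the 40 cell cycle genes, 2 met this, against 4.21% of all 12393 genes. Cdkn1c, the inhibitor p57, had a ratio of 0.861, with 11.17 in nm7 and 11.68 to 11.76 in the other samples. E2f1 had a ratio of 0.832, with 6.35 in nm7 and 6.85 to 6.95 in the others. The second probe set of E2f1 stood highest in nm7, at 7.48, so the low value was not seen by both.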

How the results depend on the processing

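Of the 40 cell cycle genes, 25 kept the sign of their skm minus nm difference in the alternatives that give 1 value per gene, 20 lower and 5 higher. Of these, Top2a, Nusap1 and Mcm3 have other probe sets of the opposite sign. In the 16 lower and 4 higher genes without overlap, leaving out 1 sample could not turn the sign. Members past the test numbered 0 as reported. With an intensity trend 6 passed (Mki67, Top2a, Ccna2, Ccnd1, Ccnd2 and Nusap1), beside 1110 of 12393 genes (8.96%). Top2a, Ccnd1 and Nusap1 passed with quantile normalization, beside 186 genes (1.5%). The same 3 passed without probe sets prone to cross-hybridization, beside 142 of 12106 genes (1.17%). Among the brighter genes alone (a mean no lower than the median), 13 of the 40 were left and 3 passed, beside 1026 of 6197 genes (16.6%). Of 76 probe sets tested on their own 6 passed, beside 326 of 20380 probe sets (1.6%). Leaving out 1 sample gave 0 throughout, with 1 residual degree of freedom and the lone sample assumed to vary like the others. Those at an unadjusted p under 0.05 numbered 15 of 40 as reported, where 13.0% of all genes were lower and 10.6% higher at that threshold. They numbered 28 of 76 probe sets on their own and 5 of 13 among the brighter genes. The shares of all probe sets and of all brighter genes at that threshold were not counted, so these numbers are not read as an excess. The median difference of the members stayed between -0.25 and -0.10. Counts without 1 sample were added after seeing the data. Of the members, 5 to 7 then had a range over 1, against 3.46% to 4.41% of all genes. Those lower in skm without overlap numbered 19 to 25, where 38.4% to 41.2% of all genes were.

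The sign turned with the mean of all probe sets for Rrm1 (0.43), Cdkn1b (0.36), Cdc20 (-0.11), Cdk4 (-0.07) and E2f1 (-0.01), without cross-hybridizing probe sets for Rrm2 (0.14) and Cdk4 (-0.09), and with quantile normalization for Mcm2 (0.01); the choice of probe sets made the first 2 groups, and for Mcm2 the cause was not tested. Leaving out 1 sample gave differences from -0.14 to 0.44 for Aurka, -0.03 to 0.80 for Aurkb, -0.23 to 0.09 for Bub1, -0.76 to 0.57 for Bub1b, -0.03 to 0.59 for Plk1, -0.65 to 0.25 for Birc5, -0.16 to 0.05 for Rrm1, -0.38 to 0.30 for Mcm2, -0.03 to 0.03 for Cdk4, -0.20 to 0.03 for Cdc6, -0.58 to 0.10 for Cenpa, -0.35 to 0.25 for Cdkn1b and -0.06 to 0.54 for E2f1. No paired analysis was possible because the 4 samples form 1 group with no shared replicate number.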

Other observations

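Regulators of the cycle outside the 40 genes went both ways. Of 24 measured, 12 (50%) were lower and 5 (20.8%) higher in skm without overlap, against 28.6% and 25.8% of all genes. The number past the test was 0. Rbl1, the retinoblastoma relative p107, stood at 7.26, 7.40, 6.27 and 6.31 in nm7, nm8, skm4 and skm5, a difference of -1.05 ± 0.12 (limma, adjusted p = 0.0506), while its relative Rbl2 differed by -0.12 ± 0.12. Wee1, the kinase that keeps Cdk1 inactive, stood at 7.98, 8.03, 8.86 and 9.08, higher by 0.96 ± 0.13 (adjusted p = 0.0506). Myc, a growth factor-induced transcription factor, differed by -0.78 ± 0.16, and Cdkn2b, an inhibitor of Cdk4 and Cdk6, by -0.86 ± 0.29. The inhibitor Cdkn2d differed by 0.55 ± 0.13, in the direction opposite to its relative Cdkn2c at -0.46 ± 0.15. Foxm1 and Mybl2, transcription factors of mitotic genes, differed by -0.02 ± 0.18 and 0.09 ± 0.18, with Mybl2 as dim as olfactory receptor genes. Rbl2, Cdkn2d, Foxm1 and Mybl2 were chosen after their values were seen. No cause of these values was tested.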
